A study of Mus musculus with 15 samples.

Results

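The 10 genes described here mark the pro-B and pre-B stages of B cell development. They were listed by name: Rag1, Rag2, Dntt, Vpreb1, Vpreb2, Vpreb3, Igll1, Il7r, Kit and Sox4. All 10 were found by symbol among the 23329 genes counted in each tumor, and 8 of them passed the filter of over 1 CPM (the usual unit of read counts relative to library size, here scaled by TMM) in at least 3 tumors, while Dntt and Vpreb2 did not. The data are RNA sequencing of tumors from 15 mice, 1 library per mouse, so replicates are separate animals. The lymphomas were taken from the cervical lymph nodes of C57BL/6 mice. Casp2 was intact in 4 EμMyc mice (EuMyc614, EuMyc743b, EuMyc829 and EuMyc835), which fell ill at 13 to 19 weeks. It was deleted in the germline of 3 EμMyc/Casp2-/- mice (EuMycC2ko215, EuMycC2ko239 and EuMycC2ko245), which fell ill at 8 to 12 weeks. Age at onset and genotype therefore cannot be told apart in the lymphomas. The 4 Th-MycN and 4 Th-MycN/Casp2-/- neuroblastomas, with onset at 10 to 21 and 15 to 24 weeks, came from thoracic paraspinal tumors of Sv129/C57BL6 mice, and tumors with little or no vascularization were chosen. In the EμMyc mice the immunoglobulin heavy chain enhancer drives Myc in B cells, and MYCN of the Th-MycN mice is under a promoter of sympathetic neuroblasts, that of tyrosine hydroxylase, so each transgene sets the cell type of its tumor. A further EμMyc/Casp2-/- tumor of the study was not analysed here. The reads assigned to genes in the 1 strand column used numbered 9236641 to 13093667 reads in EμMyc, 4940464 to 11697757 in EμMyc/Casp2-/-, 13862487 to 17638029 in Th-MycN and 10353787 to 15681695 in Th-MycN/Casp2-/- tumors. These are fewer than the reads of a whole library: counted from either strand, 9845761 (EuMycC2ko215) to 35192127 (MYCN332) reads were assigned to genes. At 3 reads, the smallest value taken as detectable lay between 0.173 and 0.586 CPM, a limit for counting error alone.

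B cells develop in the bone marrow in steps that each follow a rearrangement of an immunoglobulin gene. In pro-B cells, which depend on signals from the IL-7 receptor and carry the receptor Kit, the recombinase of RAG1 and RAG2 joins heavy chain segments and the polymerase TdT, the product of Dntt, adds bases at the joints. A finished heavy chain is then displayed with the surrogate light chain, made of the VpreB and λ5 proteins of Vpreb1, Vpreb2 and Igll1, as the pre-B cell receptor. Its signal ends the expression of the surrogate light chain, the recombinase returns to rearrange the light chain genes, and a B cell with a complete receptor leaves for the lymph nodes and spleen. Myc lymphomas of EμMyc mice are known to arise at either the pre-B or the B cell stage. Most of the genes are lymphoid, but Kit is also used by mast cells and neural crest cells, and Sox4 by many embryonic and neural tissues.

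The labels were first checked against the genes they concern. Casp2 was 167, 125, 203 and 139 CPM in the EμMyc tumors and 58.0, 51.9 and 76.1 CPM in the EμMyc/Casp2-/- tumors, with a log2 fold change of -1.35 ± 0.27 (SE; likelihood ratio test, LRT, of edgeR, FDR 0.0004; the stricter quasi-likelihood test, QLF, FDR 0.0536). The groups did not overlap, and reads of Casp2 were present in all knockout tumors. In the neuroblastomas Casp2 was 76.0 to 125 CPM in Th-MycN and 39.6 to 80.2 CPM in Th-MycN/Casp2-/- tumors, which overlap (log2 fold change -0.79 ± 0.25, LRT FDR 0.102). Myc averaged 1564 CPM in EμMyc and 1191 CPM in EμMyc/Casp2-/- tumors against 8.98 and 9.02 CPM in the neuroblastoma groups, and Mycn averaged 400.0 and 336 CPM in the neuroblastomas against 0.391 and 0.917 CPM in the lymphomas. Myc was lowest of the lymphomas in EuMycC2ko215, at 498 CPM. It was 1346 CPM in EuMycC2ko239, 1729 CPM in EuMycC2ko245 and 1238 to 1914 CPM in the EμMyc tumors. All 9 pan-B markers had reads in every lymphoma, and their sum was 2372 to 4935 CPM in the lymphomas against 12.5 to 31.7 CPM in the neuroblastomas. The 7 markers of sympathetic neuroblasts summed to 2094 to 3370 CPM in the neuroblastomas and 0.945 to 14.3 CPM in the lymphomas.

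Both EuMyc743b and EuMycC2ko215 stood apart in the stage genes. EuMyc743b had the highest value of the 7 lymphomas for Vpreb1, Igll1, Il7r and Sox4, and EuMycC2ko215 for Rag1, Rag2, Dntt, Vpreb3 and Kit, so these 2 tumors held the highest value of all 9 genes with reads. EuMycC2ko215 was also the library with the fewest reads and had 11.2% unmapped reads against 3.15% to 3.89% in the other lymphomas, whose part in its values was not tested. It was the highest lymphoma for 10 of 11 T cell markers. The 11 T cell markers summed to 1857 CPM in EuMycC2ko215, with Lck the most abundant at 412 CPM, and to 95.1 to 238 CPM in the other 6 lymphomas. Ptcra, the pre-T cell receptor chain that defines thymocytes, was 11.5 CPM in EuMycC2ko215 and had 0 reads in each of the other lymphomas. The pan-B sum of EuMycC2ko215, 3779 CPM, lay within the range of the other lymphomas. Whether T lineage cells or lymphoma cells carried these transcripts was not tested. In such bulk samples fewer cells of a type and less RNA per cell cannot be told apart. The comparisons of groups and the spread of the genes are given with and without them.

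**Figure D1:**
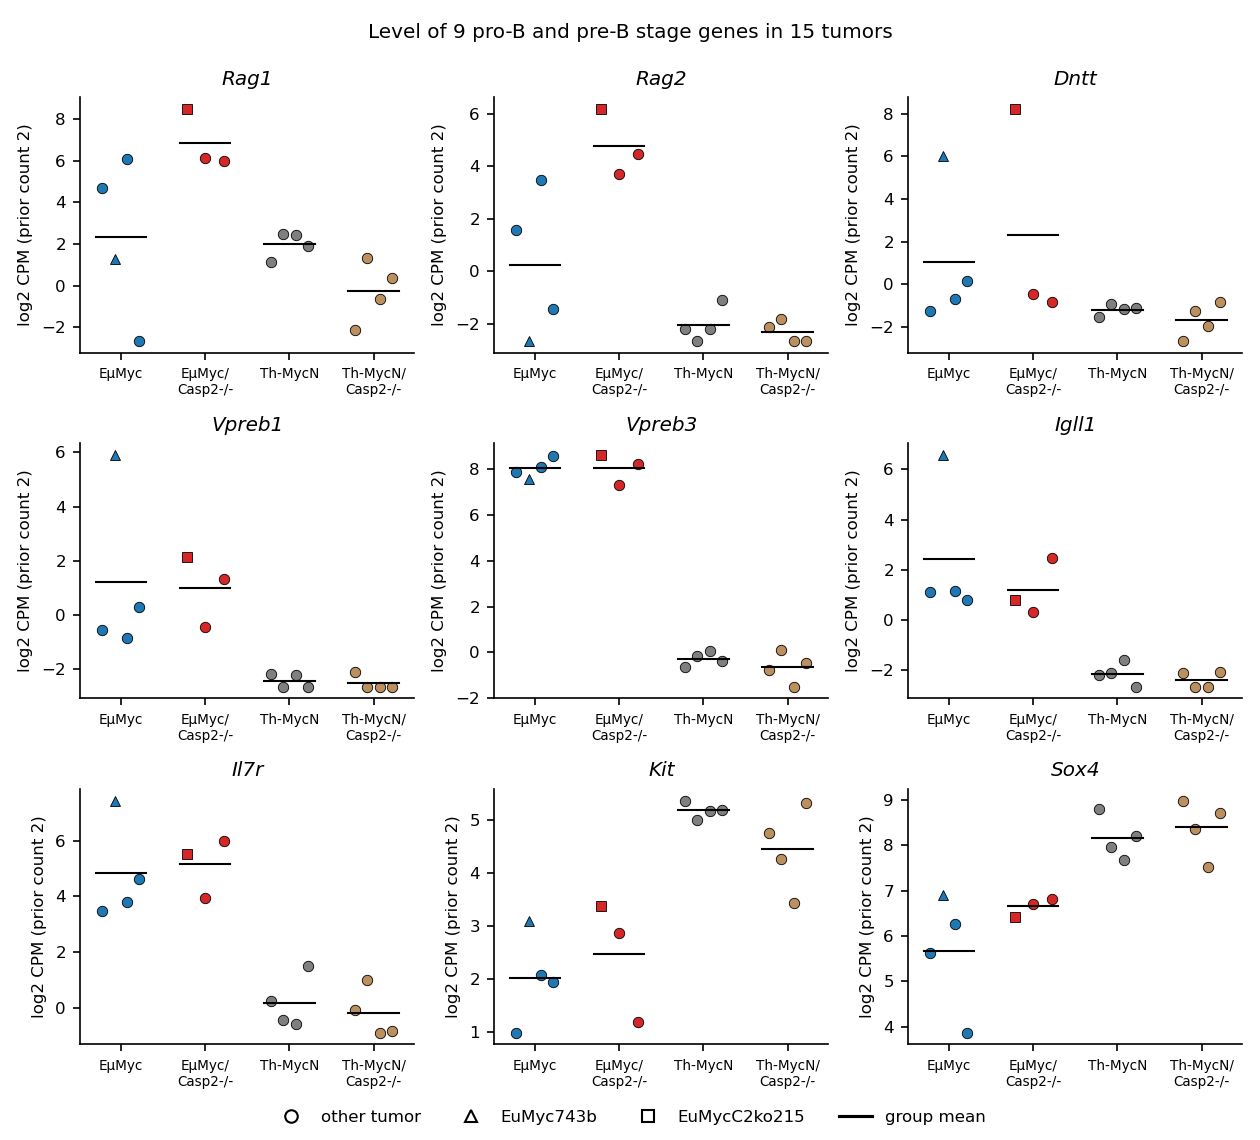
Level of 9 of the 10 genes in each of the 15 tumors, as log2 CPM with a prior count of 2 (vertical axis, a separate range for each gene), by group. Points are tumors, triangles EuMyc743b, squares EuMycC2ko215, and lines are group means. Vpreb2 had 0 reads in all 15 tumors and is not drawn. The triangle lies far above the other lymphomas for Vpreb1 and Igll1, the square is highest for Rag1, Rag2 and Dntt, and the lymphomas lie close together for Vpreb3.

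The recombinase genes lie side by side on chromosome 2. In the GENCODE vM21 annotation of GRCm38, Rag1 (ENSMUSG00000061311.6) is at chr2:101638282-101649501 on the minus strand and Rag2 (ENSMUSG00000032864.4) at chr2:101624718-101632529 on the plus strand, with 5752 bases between them. Since the pair is read from opposite strands and moved together across the lymphomas, the 250 bases before the start of each gene are shown, taken from RefSeq (GRCm38.p6) and written 5′ to 3′ on the strand of the gene. They are chr2:101649533-101649782 for Rag1 and chr2:101624462-101624711 for Rag2. Capitals mark CAGGTG, a sequence bound by E2A proteins, and TGGGAA, a sequence bound by Ikaros, on either strand.
Rag1 promoter: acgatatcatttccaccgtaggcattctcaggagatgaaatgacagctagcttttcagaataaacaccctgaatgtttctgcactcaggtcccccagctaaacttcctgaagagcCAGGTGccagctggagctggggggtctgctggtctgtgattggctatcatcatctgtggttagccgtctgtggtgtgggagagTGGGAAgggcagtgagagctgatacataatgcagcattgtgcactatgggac
Rag2 promoter: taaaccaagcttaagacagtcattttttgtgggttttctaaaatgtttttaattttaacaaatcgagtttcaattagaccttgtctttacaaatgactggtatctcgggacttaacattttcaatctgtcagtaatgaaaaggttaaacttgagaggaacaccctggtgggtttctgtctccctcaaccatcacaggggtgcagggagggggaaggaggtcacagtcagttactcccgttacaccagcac
In the Rag1 window the first letter of CAGGTG is 135 bases and that of TGGGAA 52 bases before the start, and neither was found in the Rag2 window.

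Rag1, which encodes the subunit of the recombinase that cuts DNA, ranged from no reads to the level of a prominent gene. In the EμMyc tumors EuMyc614, EuMyc743b, EuMyc829 and EuMyc835 it was 25.5, 2.31, 68.1 and 0 CPM. In EuMycC2ko215, EuMycC2ko239 and EuMycC2ko245 it was 358, 69.4 and 63.3 CPM. The groups overlapped through EuMyc829 alone, which exceeded EuMycC2ko245, and the EuMycC2ko239, EuMyc829 and EuMycC2ko245 tumors were close to each other. EuMyc835 had 0 reads of Rag1, which allows up to 0.319 CPM. In the neuroblastomas Rag1 was 2.02, 5.45, 5.31 and 3.58 CPM in Th-MycN and 0.0720, 2.38, 0.482 and 1.14 CPM in Th-MycN/Casp2-/- tumors. A longer gene on the same strand, B230118H07Rik (chr2:101560781-101649532), covers both Rag genes and shares 80 exon bases with Rag1. It was 26.1 to 55.8 CPM in the neuroblastomas and 0.941 to 17.4 CPM in the lymphomas, and was looked at after the values were seen. Its part in the Rag1 reads of the neuroblastomas was not tested.

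Rag2, the regulatory subunit of the recombinase, was 2.80, 0, 11.02 and 0.212 CPM in the EμMyc tumors. It was 72.7, 12.9 and 21.9 CPM in EuMycC2ko215, EuMycC2ko239 and EuMycC2ko245. Every EμMyc/Casp2-/- tumor was above every EμMyc tumor, with EuMyc829 next to EuMycC2ko239. In the 8 neuroblastomas Rag2 had 10 reads in all and was at most 0.309 CPM. The number of Rag1 reads per Rag2 read was 2.89 to 9.13 in the 5 lymphomas with more than 10 reads of each. EuMyc743b, with 27 and 0 reads, and EuMyc835, with 0 and 2 reads, lacked both transcripts almost entirely.

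Dntt (ENSMUSG00000025014.13, chr19:41029275-41059525, plus strand) was high in 2 lymphomas. It was 63.7 CPM in EuMyc743b and 299 CPM in EuMycC2ko215. The other 5 lymphomas had 0.262 to 0.956 CPM, little above the 0 to 0.406 CPM of the 8 neuroblastomas. The tumor richest in Dntt was thus also the richest in Rag1 and Rag2, whereas the next, EuMyc743b, had hardly any Rag1. Dntt exceeded 1 CPM in these 2 tumors only and was not part of the fit across genes. The mean log2 CPM was 2.32 in EμMyc/Casp2-/- and 1.06 in EμMyc tumors, a difference of 1.26 with p = 0.6 in a 2-sided exact permutation test over the 35 splits of 7 tumors, where the smallest p that can be reached is 0.0286.

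Of the 13 listed partners of the recombinase, which bend the DNA, join the broken ends or sense the break, 12 were in the tables. None was called different between the lymphoma genotypes (0 of 12 by LRT and by QLF). Of all genes, the LRT called 1.14% higher and 0.302% lower there, and QLF 0.141%. Xrcc6, which encodes the Ku70 subunit that holds DNA ends, and Atm, the kinase that senses the breaks, were the most abundant, and Xrcc6 was 694 CPM in EuMyc743b against 124 to 271 CPM in the other lymphomas. Polm, a polymerase related to TdT, was 9.67 CPM in EuMyc743b and 50.4 to 96.9 CPM in the other 6 lymphomas. In EμMyc against Th-MycN tumors 8 of 12 were higher (Hmgb1, Hmgb2, Xrcc6, Prkdc, Dclre1c, Lig4, Nhej1 and Polm) and none was lower, beside 18.9% of all 14880 genes tested that were higher and 28.5% that were lower. In EμMyc/Casp2-/- against Th-MycN/Casp2-/- tumors 7 of 12 were higher (Hmgb1, Hmgb2, Xrcc5, Xrcc6, Prkdc, Lig4 and Polm) and none was lower, beside 20.5% and 27.6% of all genes.

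The surrogate light chain genes Igll1 (ENSMUSG00000075370.12, chr16:16860671-16863985, minus strand) and Vpreb1 (ENSMUSG00000059305.12, chr16:16868403-16870843, minus strand) are neighbours on chromosome 16, with 4417 bases between them. Vpreb2 (ENSMUSG00000059280.4, chr16:17980428-17981273, plus strand) is a near copy of Vpreb1, and their coding sequences of 426 bases differ at 9 positions (97.9% identical), so that a read of 50 bases can fall where both are the same. The longest identical run is 196 bases, and 67.2% of the 50-base words of Vpreb2 and 76.4% of those of Vpreb1 occur in no other gene. To show how a read can tell the pair apart, positions 268 to 387 of both coding sequences are given, from the GENCODE transcripts, with the 6 differing bases in capitals.
Vpreb1: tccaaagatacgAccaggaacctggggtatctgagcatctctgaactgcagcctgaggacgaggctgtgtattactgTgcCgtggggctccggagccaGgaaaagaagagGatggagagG
Vpreb2: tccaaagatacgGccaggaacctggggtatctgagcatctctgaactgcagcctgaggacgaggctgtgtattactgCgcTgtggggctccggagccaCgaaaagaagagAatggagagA
The promoters of Vpreb1 (chr16:16869256-16869505) and Igll1 (chr16:16863986-16864235) are given likewise from RefSeq, because both genes rose in the same tumor, with CAGGTG on either strand in capitals. The RefSeq start of Vpreb1 lies inside the longer GENCODE gene.
Vpreb1 promoter: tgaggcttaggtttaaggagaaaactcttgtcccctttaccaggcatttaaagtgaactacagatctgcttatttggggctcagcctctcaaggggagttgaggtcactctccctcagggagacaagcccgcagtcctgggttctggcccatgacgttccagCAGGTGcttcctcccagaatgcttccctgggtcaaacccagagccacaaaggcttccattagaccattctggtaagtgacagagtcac
Igll1 promoter: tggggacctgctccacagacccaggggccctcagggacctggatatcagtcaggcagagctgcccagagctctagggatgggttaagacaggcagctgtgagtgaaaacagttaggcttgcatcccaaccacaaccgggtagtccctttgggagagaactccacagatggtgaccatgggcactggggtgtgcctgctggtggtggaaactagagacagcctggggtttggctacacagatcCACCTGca
The first letter of the match is 88 bases before the start of Vpreb1 and 8 bases before that of Igll1, where it is read on the other strand as CACCTG.

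Igll1, which encodes λ5, was 2.01, 95.1, 2.05 and 1.59 CPM in EuMyc614, EuMyc743b, EuMyc829 and EuMyc835. It was 1.56, 1.09 and 5.35 CPM in EuMycC2ko215, EuMycC2ko239 and EuMycC2ko245. EuMyc743b had 1112 reads of Igll1 and was 52.8-fold above the median of the other 6 lymphomas, which had 8 to 53 reads. In the neuroblastomas Igll1 had 7 reads in all, 0 to 3 per tumor. Vpreb1 was 0.525, 60.1, 0.394 and 1.06 CPM in the same EμMyc tumors and 4.30, 0.584 and 2.32 CPM in the EμMyc/Casp2-/- tumors. EuMyc743b was again alone, 73.0-fold above the median of the others, and the neuroblastomas held 3 reads in all. Vpreb1 shares part of an exon with Top3b on the opposite strand, and in these counts the strands could not be told apart. Vpreb2 had 0 reads in all 15 tumors, which allows up to 0.586 CPM in the shallowest library. In the count that takes reads of either strand, Vpreb2 had 3 reads, all in EuMyc829.

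Vpreb3 (ENSMUSG00000000903.3, chr10:75943057-75949657, plus strand) is a relative of the VpreB genes whose protein binds immunoglobulin chains inside the cell and which stays on after the pre-B stage. It was 237, 193, 278 and 382 CPM in the EμMyc tumors and 399, 160 and 302 CPM in the EμMyc/Casp2-/- tumors, or 272 ± 81.0 (SD, n = 4) and 287 ± 120 (SD, n = 3). The groups overlapped fully and no tumor stood apart. In the neuroblastomas it was 0.193 to 0.900 CPM. There were 118 to 255 reads of Vpreb3 per read of Igll1 in 5 of the lymphomas, 56.4 in EuMycC2ko245, and 2.02 in EuMyc743b. All 50-base words of Vpreb3 are unique, so its reads do not come from Vpreb1 or Vpreb2.

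Of the 14 listed genes of signalling through the pre-B receptor, the 13 measured were present in all lymphomas, whether Igll1 and Vpreb1 were high or low. All 13 were higher in EμMyc than in Th-MycN tumors (beside 18.9% of all genes) and in EμMyc/Casp2-/- than in Th-MycN/Casp2-/- tumors (beside 20.5%). Among them were Cd79a, Cd79b, Blnk, Irf4, Syk, Lyn, Btk, Plcg2, Pik3cd, Ikzf1, Ikzf3 and Irf8. Cd79b and Ikzf3 exceeded 1 CPM in too few neuroblastomas to pass the filter without the lymphomas. The count therefore describes the list and is no test of it. Between the lymphoma genotypes 0 of 13 were called, beside 1.14% of all genes higher and 0.302% lower by LRT. Ighm was not analysed here. EuMyc743b had the lowest value of the 7 lymphomas for 6 of the 13 genes and EuMycC2ko215 for 4. Syk, the kinase that carries the receptor signal, was 274 to 642 CPM in the lymphomas. Among the pan-B markers, Blk, a Src kinase of the receptor, was 5.47 CPM in EuMyc743b and 59.4 to 190 CPM in the other 6 lymphomas, and EuMyc743b was the lowest lymphoma for 7 of the 9.

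Il7r (ENSMUSG00000003882.5, chr15:9505788-9530176, minus strand), the chain of the IL-7 receptor that binds the cytokine, was present in every lymphoma. It was 11.02, 173, 13.8 and 24.6 CPM in EuMyc614, EuMyc743b, EuMyc829 and EuMyc835. In EuMycC2ko215, EuMycC2ko239 and EuMycC2ko245 it was 45.7, 15.4 and 63.8 CPM. EuMyc743b was 8.65-fold above the median of the other 6 lymphomas, and the remaining tumors of both groups overlapped. The neuroblastomas had 0.386 to 2.66 CPM. Of the 12 other genes of the pathway, 11 were tested. In both comparisons of tumor types 7 of them were higher in the lymphomas, namely the shared receptor chain Il2rg, the kinase Jak3, the transcription factors Stat5a and Stat5b, the inhibitors Socs1 and Socs3 and the cytokine Il7, and the STAT5 target Cish was lower. Of all genes, 18.9% and 20.5% were higher and 28.5% and 27.6% lower in these comparisons. Il7 was at most 0.494 CPM in the neuroblastomas and passed the filter through the lymphomas, so its direction is no test. None of the 11 was called between the lymphoma genotypes, beside 1.14% of all genes higher and 0.302% lower by LRT. Jak1 was the most abundant at 147 to 348 CPM, followed by Stat5b at 78.0 to 158 CPM and Il2rg at 67.2 to 129 CPM, which overlapped. Socs3 was 54.9 CPM in EuMyc743b and 5.83 to 15.2 CPM in the other lymphomas. Il7 was 7.62 CPM in EuMycC2ko215 and at most 2.13 CPM in the others.

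Kit (ENSMUSG00000005672.12, chr5:75574916-75656722, plus strand), the receptor of stem cell factor, was low in the lymphomas. It was 1.84, 8.38, 4.10 and 3.72 CPM in the EμMyc tumors and 10.4, 7.18 and 2.12 CPM in the EμMyc/Casp2-/- tumors. It was higher in every neuroblastoma, at 41.4, 32.2, 36.2 and 36.5 CPM in Th-MycN and 27.1, 19.3, 10.7 and 40.1 CPM in Th-MycN/Casp2-/- tumors, although MYCNC2ko176 was close to EuMycC2ko215. Mast cells also use Kit. The 6 mast cell markers summed to at most 6.84 CPM in any lymphoma, in EuMycC2ko215, and to at most 0.257 CPM in any neuroblastoma, and Fcer1a and Ms4a2 had 0 reads in all lymphomas. Of the genes related to Kit, Flt3 and Pdgfra were higher in the lymphomas in both comparisons of tumor types, Kitl, the ligand of Kit, was higher in EμMyc against Th-MycN tumors, and Csf1r was not called. Flt3, the receptor of early lymphoid progenitors, was 11.4 CPM in EuMyc743b and 1.81 to 7.26 CPM in the other lymphomas. In the neuroblastomas Flt3 was at most 0.494 CPM, so it passed the filter through the lymphomas and its direction is no test.

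Sox4 (ENSMUSG00000076431.4, chr13:28948919-28953713, minus strand), a transcription factor needed for early B cells, was 49.3, 119, 76.7 and 14.4 CPM in the EμMyc tumors. It was 86.0, 105 and 112 CPM in the EμMyc/Casp2-/- tumors. EuMyc835 was the lowest and EuMyc743b the highest, so the EμMyc tumors spanned the other group. In the neuroblastomas Sox4 was 184 to 508 CPM, above every lymphoma. The antisense gene Gm26735 overlaps 54.6% of the exon bases of Sox4 and its reads could not be separated. The relatives Sox11 and Sox12 were likewise lower in the lymphomas in both comparisons of tumor types. Sox11 was 0.0855 to 1.17 CPM in the lymphomas and averaged 380 CPM in the neuroblastomas, and Sox12 was 2.93 CPM in EuMycC2ko215 and 32.9 to 94.4 CPM in the other lymphomas.

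Per kilobase of exon, the median level in the 7 lymphomas was 324 CPM per kb for Vpreb3, 17.9 for Sox4, 9.58 for Rag1, 5.28 for Il7r, 3.22 for Rag2, 0.930 for Igll1, 0.886 for Vpreb1, 0.459 for Kit, 0.255 for Dntt and 0 for Vpreb2. The ranges of neighbours in this order overlapped, except that the lowest Vpreb3 value, 187 CPM per kb, was above the highest of Sox4, 24.9 CPM per kb, and that Vpreb2 was at 0 throughout. The order differed in EuMyc743b, where Vpreb1, at 50.1 CPM per kb, Igll1, at 44.0, Il7r, at 37.1, and Dntt, at 27.8, all exceeded Sox4, at 24.9. In EuMycC2ko215 Dntt reached 130 CPM per kb, next to Vpreb3 at 464.

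The stage of each lymphoma was then described by the mean log2 CPM of early and of mature genes. The mean of Igll1, Vpreb1 and Vpreb2 minus the mean of 8 mature B markers (among them Ms4a1, Cr2, Fcer2a, Ccr7, Cd40, Tnfrsf13c and Cxcr5; Ighd and Ighm were not analysed here) was -4.67, 0.57, -4.22 and -5.14 in EuMyc614, EuMyc743b, EuMyc829 and EuMyc835. It was -3.16, -6.48 and -3.86 in EuMycC2ko215, EuMycC2ko239 and EuMycC2ko245. EuMyc743b was the 1 lymphoma above 0, also with a prior count of 0.5 (0.14) and with reads of either strand (0.22). The difference holds the lengths of the genes too, so its variation between tumors is what can be read from it. The mean of Rag1 and Rag2 followed another order, with 7.34 in EuMycC2ko215, 5.23 in EuMycC2ko245, 4.91 in EuMycC2ko239, 4.79 in EuMyc829, 3.12 in EuMyc614, -0.67 in EuMyc743b and -2.04 in EuMyc835.

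**Figure D2:**
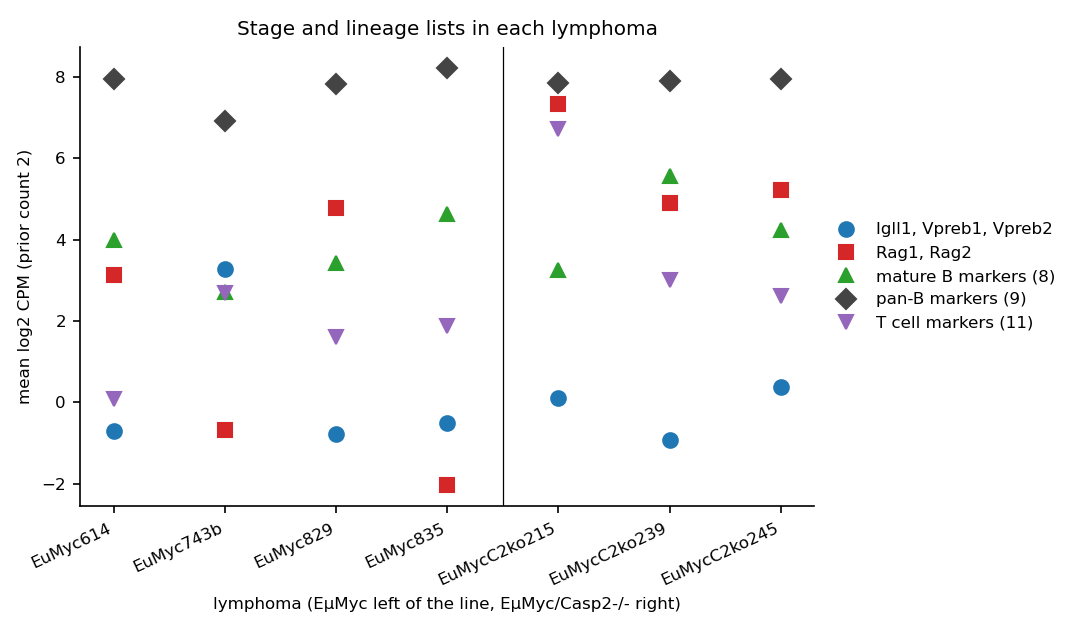
Mean log2 CPM (prior count 2, vertical axis) of 5 sets of genes in each of the 7 lymphomas (horizontal axis, EμMyc left and EμMyc/Casp2-/- right of the line). The surrogate light chain mean exceeds the mature B mean in EuMyc743b, where it is 3.28 against 2.71, and in no other lymphoma. The T cell mean is 6.72 in EuMycC2ko215 and at most 3.01 in the others, and the pan-B mean is 6.92 to 8.22 in all 7.

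Further genes told the single tumors apart. In EuMyc743b, Ms4a1 (CD20) was 17.1 CPM and Cxcr5, the receptor that guides B cells into follicles, 0.855 CPM, while Erg, a transcription factor of progenitors, was 33.8 CPM against 1.51 to 6.84 CPM in the other lymphomas. Tnfrsf13c, the BAFF receptor of mature B cells, was nevertheless 207 CPM in EuMyc743b, second to the 248 CPM of EuMyc835. Myeloid markers moved with it as well: S100a8 was 153 CPM and Mpo 29.9 CPM in EuMyc743b against at most 52.8 and 15.8 CPM in the others, and it was the highest lymphoma for 4 of 6 myeloid markers. Endothelial cells also use Erg, and the endothelial markers Cdh5, at 62.9 CPM against at most 38.7 CPM, and Tek, at 9.41 CPM against at most 5.35 CPM, were highest in EuMyc743b, while Pecam1 and Kdr were not. The 4 endothelial markers summed to 221 CPM in EuMyc743b and 113 to 215 CPM in the others. The part of myeloid and endothelial cells in its stage genes was not tested.

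EuMyc835, the EμMyc tumor with the latest onset and without Rag1, had the most Ms4a1, 921 CPM against 14.5 to 318 CPM in the others, and was the highest lymphoma for 4 of the 8 mature markers. EuMycC2ko239 had 56.8 CPM of Cr2 (CD21) and 74.7 CPM of Fcer2a (CD23), markers of follicular B cells, where the other lymphomas had at most 3.52 and 0.707 CPM, together with 69.4 CPM of Rag1. EuMycC2ko215 had the lowest Ms4a1, 14.5 CPM, and the most Il2ra (CD25), 13.3 CPM against at most 3.504 CPM. EuMyc614, EuMyc829 and EuMycC2ko245 had Rag1 with little Igll1, Vpreb1 or Dntt. Enpep (BP-1), a surface enzyme of pre-B cells, was 113 CPM in EuMyc743b and 106 CPM in EuMyc829 but 0.525 CPM in EuMyc614. Lef1, a transcription factor of early lymphocytes, was 76.6 to 119 CPM in EuMyc743b and the 3 EμMyc/Casp2-/- tumors and 2.55 to 15.4 CPM in the other EμMyc tumors. No single order of the 7 lymphomas held for all stage genes.

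Rag1 and Rag2 varied more between lymphomas than most genes did, with or without the 2 tumors that stood apart but always with EuMyc835 kept. Over the 7 lymphomas the SD of log2 CPM was 3.84 for Dntt, 3.75 for Rag1, 3.21 for Rag2, 2.37 for Vpreb1, 2.17 for Igll1, 1.42 for Il7r, 1.07 for Sox4, 0.93 for Kit and 0.49 for Vpreb3. The median over 12764 tested genes with a mean of at least 1 CPM was 0.46 and the 90th percentile 1.25. Dntt, which did not pass the filter, was not among these genes but was set against them. The 6 most variable of the 9 exceeded that percentile, all 9 exceeded the median, and 99.9% of the genes had a lower SD than Rag1. Without EuMyc743b, 3 of 9 (Rag1, Rag2 and Dntt) exceeded the 90th percentile of the same 6 tumors, 1.24, and the SD fell to 1.19 for Vpreb1, 0.73 for Igll1 and 1.01 for Il7r. Without EuMycC2ko215, 7 of 9 exceeded it. Without both, 3 of 9 did (Rag1 at 3.79, Rag2 at 2.37 and Sox4 at 1.21, beside a percentile of 1.02), and Dntt had an SD of 0.52. All 9 remained above the median in each case. Without both, Rag1 had a log2 CPM of -2.65 in EuMyc835, at 0 reads, and 4.68 to 6.12 in the remaining tumors. Rag2 was at -1.43 in EuMyc835, at 2 reads, and 1.57 to 4.46 in the remaining tumors. The spread without EuMyc835 was not computed, so the part of this tumor in it was not tested. Vpreb3, with 53.3% of genes below it, varied like an ordinary gene. The genes were listed with earlier results of these data known, so this is a description.

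**Figure D3:**
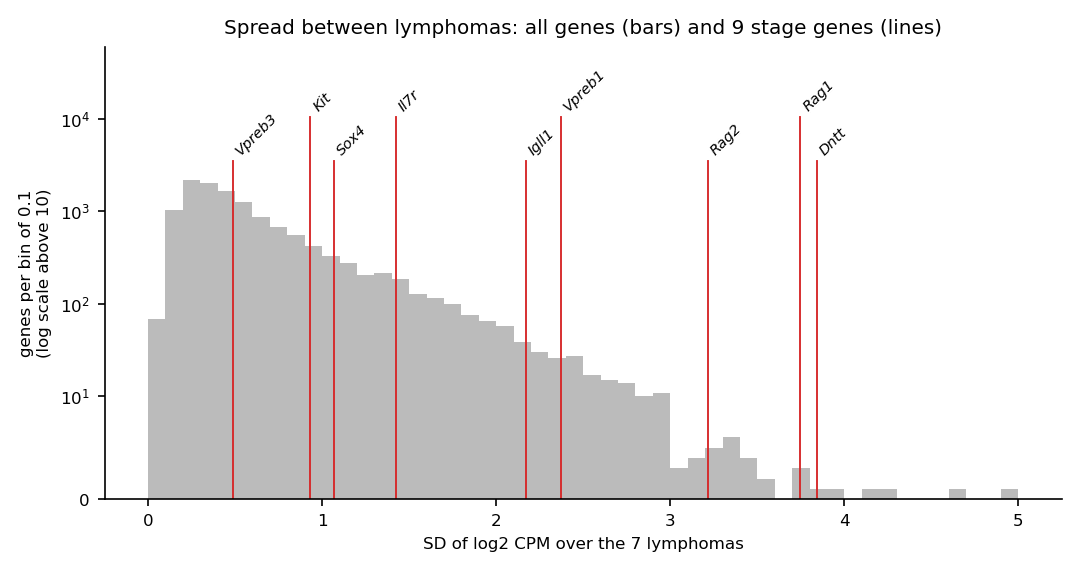
Distribution of the SD of log2 CPM over the 7 lymphomas for 12764 tested genes (bars, genes per bin of 0.1 on the horizontal axis, vertical axis on a log scale above 10) with the 9 stage genes that had reads (red lines, whose heights carry no value). Dntt (3.84), Rag1 (3.75) and Rag2 (3.21) lie in the thin right tail and Vpreb3 (0.49) near the median of 0.46.

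Across the 7 lymphomas, all 36 pairs of the 9 genes with reads were correlated on log2 CPM, with p-values from all orders of the tumors (exact permutation test, 2-sided). Of these, 25 had a positive and 11 a negative Pearson's r, 5 had p under 0.05, and 0 were below 0.05 after Benjamini-Hochberg adjustment over the 36 pairs. For Rag1 and Rag2 r was 0.90 (exact permutation p = 0.00694, adjusted p = 0.125) and Spearman's rho 0.86 (exact permutation p = 0.0238, adjusted p = 0.286), r was 0.95 without the 2 tumors farthest from the median of Rag1 and 0.82 on deviations from the group means. For Vpreb1 and Il7r r was 0.95 (exact permutation p = 0.00198, adjusted p = 0.0714), rho was 0.93 (exact permutation p = 0.00675, adjusted p = 0.221), and r was 0.97 without the 2 farthest tumors. Counted from reads of either strand, both of these pairs had an adjusted exact permutation p of 0.0429, with r of 0.93 and 0.95, while the adjusted exact permutation p of rho was 0.410 and 0.121. Vpreb1 and Igll1 had r of 0.89 (exact permutation p = 0.0419, adjusted p = 0.301) but rho of 0.25 (exact permutation p = 0.595, adjusted p = 0.971), and r was 0.30 without EuMyc743b and 0.73 without both EuMyc743b and EuMycC2ko215. Igll1 and Il7r (r = 0.84, exact permutation p = 0.0224, adjusted p = 0.269) turned to r = -0.26 without the 2 farthest tumors. The fifth pair was Dntt and Kit (r = 0.79, exact permutation p = 0.0391, adjusted p = 0.301), with r = 0.60 without the 2 farthest tumors. Rag1 and Igll1 had r of -0.30 (exact permutation p = 0.460, adjusted p = 0.871), but 0.12 without EuMyc743b and -0.85 without EuMyc835. With 3 and 4 tumors, r within each genotype was not computed.

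**Figure D4:**
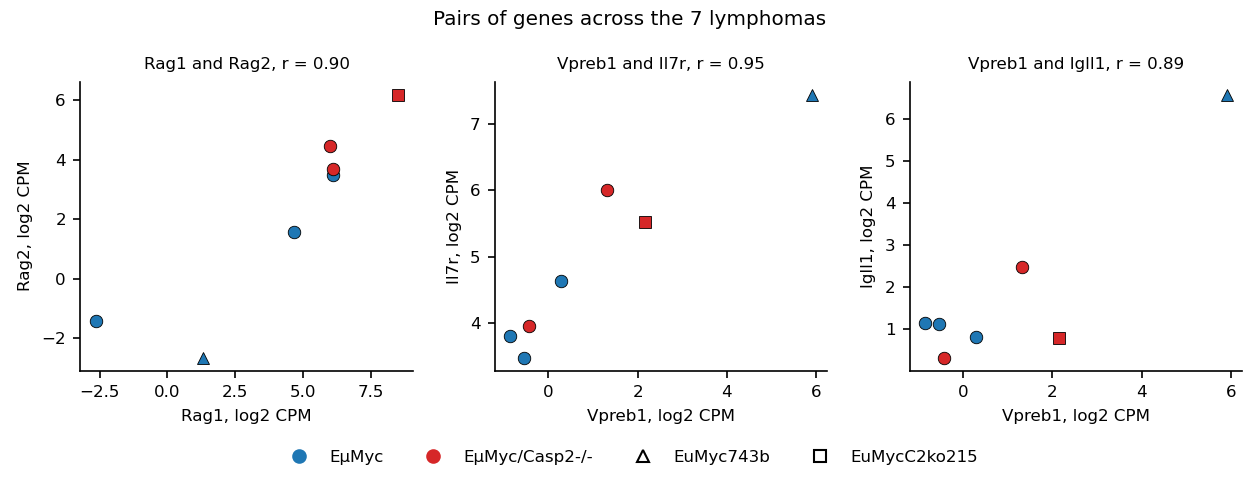
Log2 CPM (prior count 2) of 3 pairs of genes, 1 point per lymphoma, blue for EμMyc and red for EμMyc/Casp2-/-, with EuMyc743b as a triangle and EuMycC2ko215 as a square. Rag1 and Rag2 (r = 0.90) and Vpreb1 and Il7r (r = 0.95) are spread along a line, whereas for Vpreb1 and Igll1 (r = 0.89) the triangle lies far from the other 6 tumors.

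Outside the list, the genes whose log2 CPM over the 7 lymphomas was most like that of Rag1, of 10441 tested genes with a mean of at least 5 CPM, were Prelid2 (r = 0.95), Nudt2 (0.94), Wdr77 (0.93), 2610008E11Rik (0.93) and Slc1a4 (0.93). Those most like Igll1 were Cyc1 (r = 0.99), Cbfa2t2 (0.98), Eif3d (0.98), Dnalc4 (0.98) and Nhp2l1 (0.97). These are descriptions over 7 points, chosen as the highest of many, and the second set mostly reflects EuMyc743b, where Cyc1 was 376 CPM against 211 to 253 CPM in the others. Of the 5 genes most like Igll1, 4 lie on chromosome 15 (all but Cbfa2t2), which also holds Il7r and Xrcc6. The 388 genes placed on chromosome 15 had a median log2 difference from the median lymphoma of 0.40 in EuMyc743b, or 1.32-fold, and of -0.09 to 0.00 in the other 6. In EuMyc743b the medians of the other 18 autosomes were -0.07 to 0.33. Shifts of whole chromosomes were not limited to this tumor: the median was -0.67 for chromosome 19 in EuMycC2ko245, -0.54 for chromosome 13 in EuMyc835 and -0.51 for chromosome 19 in EuMyc829. This was examined after the values were seen, DNA copy number was not analysed here, and its part in the Il7r level of EuMyc743b, 8.65-fold over the other lymphomas, was not tested.

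The first comparison asks whether loss of Casp2 goes with another stage of lymphoma. None of the 8 tested genes was called (FDR under 0.05 and over 2-fold) between EμMyc/Casp2-/- and EμMyc tumors, 0 by LRT, QLF and DESeq2 alike, with 3 (Rag1, Rag2 and Igll1) at an unadjusted LRT p under 0.05. Among all 14880 genes the LRT called 1.14% higher and 0.302% lower, and QLF 0.141%. Rag1 had a log2 fold change of 2.77 ± 1.21 (SE; group means 164 and 24.0 CPM; LRT FDR 0.374, QLF FDR 0.504). Rag2 had 3.34 ± 1.29 (35.8 and 3.51 CPM; LRT FDR 0.262, QLF FDR 0.364), and its groups did not overlap. Igll1 went the other way at -3.23 ± 1.25 (2.67 and 25.2 CPM; LRT FDR 0.350, QLF FDR 0.488), as did Vpreb1 at -2.70 ± 1.42 (LRT FDR 0.611), both through EuMyc743b alone. The differences of Sox4 (0.64 ± 0.49), Kit (0.52 ± 0.55), Vpreb3 (0.07 ± 0.34) and Il7r (-0.42 ± 0.86) had LRT FDRs of 0.763 to 0.983. The median log2 fold change of the 8 was 0.30, beside -0.03 over all genes.

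Single tumors decided these values. Without EuMyc829 the difference of Rag2 was 5.12 (LRT FDR 0.0327), which was the 1 call made when any lymphoma was left out, and that of Rag1 4.12. Without EuMycC2ko215 they were 2.33 for Rag2 and 1.49 for Rag1. Without EuMyc743b, Igll1 was 0.51, Vpreb1 1.83 and Il7r 1.34. Without both EuMyc743b and EuMycC2ko215, Rag1 was 1.11 and Rag2 1.92, no gene was called, and Vpreb1 could not be tested because it no longer passed the filter.

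Among the other lists, 6 of 10 tested T cell markers (Cd3d, Cd4, Cd8a, Cd8b1, Zap70 and Bcl11b) and 4 of 7 thymocyte markers (among them Cd4, Cd8a and Cd8b1) were higher in EμMyc/Casp2-/- than in EμMyc tumors by LRT, beside 1.14% of all genes higher and 0.302% lower, and 0 by QLF. DESeq2 called 2 of 10 and 2 of 7, and the LRT fitted to these 2 groups alone 2 of 10 and 1 of 6. Without EuMycC2ko215, 1 of 10 (Zap70) and 0 of 7 were called, and with other lymphomas left out 1 at a time 1 to 9 and 2 to 4. Zap70, a kinase of T cell receptors that some B cells also express, was 73.6, 74.4 and 66.4 CPM in the EμMyc/Casp2-/- tumors and 8.22, 7.36, 28.1 and 4.14 CPM in the EμMyc tumors. Cr2 was called higher among 7 mature B markers (LRT FDR 0.0198, QLF FDR 0.170) and not without EuMycC2ko239, EuMyc614, EuMyc743b or EuMyc829. Without EuMyc829, Tnfrsf13c of the same list was called lower, and without the filter on low counts Fcer2a was called higher. Gata3, listed for sympathetic neuroblasts and also a factor of T cells, was called higher among 7 and not without EuMycC2ko215, where it was 10.2 CPM. None was called of 9 pan-B, 9 other pro-B and pre-B, 4 germinal centre, 5 plasma cell, 2 NK, 6 myeloid, 4 endothelial, 4 fibroblast, 4 Schwann and melanocyte and 14 early B transcription factor genes tested. Single genes of these lists were called higher when 1 lymphoma was left out: Sdc1 without EuMyc743b, Igj without EuMyc835 or EuMycC2ko215, Klrb1c and Foxo1 without EuMyc835, and Bcl6 and Lyz2 without EuMycC2ko245. Without the filter on low counts Gzma of the NK markers was called. The 6 mast cell markers did not pass the filter.

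In the neuroblastomas none of the 8 genes was called when Th-MycN/Casp2-/- was set against Th-MycN (0 by LRT, QLF and DESeq2, and 0 at an unadjusted LRT p under 0.05), where the LRT called 0.188% of all genes higher and 0.625% lower, and QLF 0.0336%. Rag1 had -1.99 ± 1.14 (SE; LRT FDR 0.799; group means 1.02 and 4.09 CPM), and Kit -0.59 ± 0.49 (LRT FDR 0.966; 24.3 and 36.6 CPM). Of the other lists, Cd93 and Lef1 of the pro-B and pre-B markers, Pecam1 and Kdr of the endothelial and Mitf of the Schwann and melanocyte markers were lower by LRT and not by QLF. For the interaction of genotype and tumor type, 0 of the 8 were called by LRT, QLF or DESeq2, beside 0.914% of all genes by LRT and 0.0538% by QLF. Rag1 had an interaction of 4.76 ± 1.67 (LRT FDR 0.208) and Rag2 of 4.23 ± 2.03 (LRT FDR 0.468), the 2 with an unadjusted p under 0.05. With 1 tumor left out at a time, Rag1 was at 3.49 (without EuMycC2ko215) to 6.10 (without EuMyc829) and Rag2 at 3.02 (without MYCN391) to 5.99 (without EuMyc829), with 3.23 without EuMycC2ko215, and Rag1 was at 5.61 and Rag2 at 5.05 without MYCNC2ko144. By LRT and not by QLF, Cd93, Lef1, Pecam1 and Mitf were among the listed genes that had an interaction called above 0.

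Between tumor types the genes split into lymphoid ones and Kit and Sox4. In EμMyc against Th-MycN tumors 5 of 8 were higher (Rag2, Vpreb1, Vpreb3, Igll1 and Il7r) and 2 lower (Kit and Sox4) by LRT, and QLF called the same 7, beside 18.9% of all genes higher, 28.5% lower and 46.1% called by QLF. Rag2, Vpreb1, Vpreb3 and Igll1 exceeded 1 CPM in lymphomas only and passed the filter through them, so the counts describe the list and are no test of it. Vpreb3 was 398-fold higher (log2 fold change 8.64 ± 0.38, SE), and the log2 fold change was 5.52 ± 0.81 for Il7r, 4.90 ± 1.31 for Rag2 (LRT FDR 0.0014) and 8.17 ± 1.32 for Igll1, the last 2 with 7 and 5 reads in the 4 Th-MycN tumors. Rag2 was at 3.12 without EuMyc829 and 6.11 without MYCN391, Igll1 at 4.43 without EuMyc743b and 8.86 without MYCN332, and Il7r at 3.77 without EuMyc743b and 6.26 without MYCN391. Without EuMyc743b and EuMycC2ko215, Igll1 was at 4.50 and Il7r at 3.82 on the log2 scale, both still called, and Rag1 was called too (2.98, LRT FDR 0.0194). Vpreb1 had 2 reads in the 4 Th-MycN tumors and 723 in the 4 EμMyc tumors, and no fold is given. Kit was 8.09-fold lower (-3.02 ± 0.50) and Sox4 4.61-fold lower (-2.20 ± 0.46). Rag1, at 2.55 ± 1.13, missed the threshold (LRT FDR 0.0512, QLF FDR 0.0601), with EuMyc743b and EuMyc835 below or among the neuroblastomas. It was at 1.20 without EuMyc829, and passed the threshold at 2.92 without EuMyc743b (LRT FDR 0.0251) and 2.97 without EuMyc835 (LRT FDR 0.0034).

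In EμMyc/Casp2-/- against Th-MycN/Casp2-/- tumors all 8 were called by LRT and QLF, 6 higher and 2 lower, beside 20.5% of all genes higher, 27.6% lower and 46.4% called by QLF. Rag1 was 159-fold higher (7.31 ± 1.23, SE; 6.09 without EuMycC2ko215 and 8.15 without MYCNC2ko144), Vpreb3 518-fold (9.02 ± 0.43) and Il7r 47.2-fold (5.56 ± 0.89; 6.25 without MYCNC2ko144), and Kit was 3.75-fold lower (-1.91 ± 0.54, LRT FDR 0.0021) and Sox4 3.56-fold lower (-1.83 ± 0.49, LRT FDR 0.0011). The neuroblastoma group held 3 reads of Rag2, 1 of Vpreb1 and 2 of Igll1 against 743, 52 and 74 reads in the lymphomas, and no fold is given. Without EuMycC2ko215 and EuMyc743b, Rag1 was at 6.09 on the log2 scale and all 7 genes still tested were called in the same direction.

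**Figure D5:**
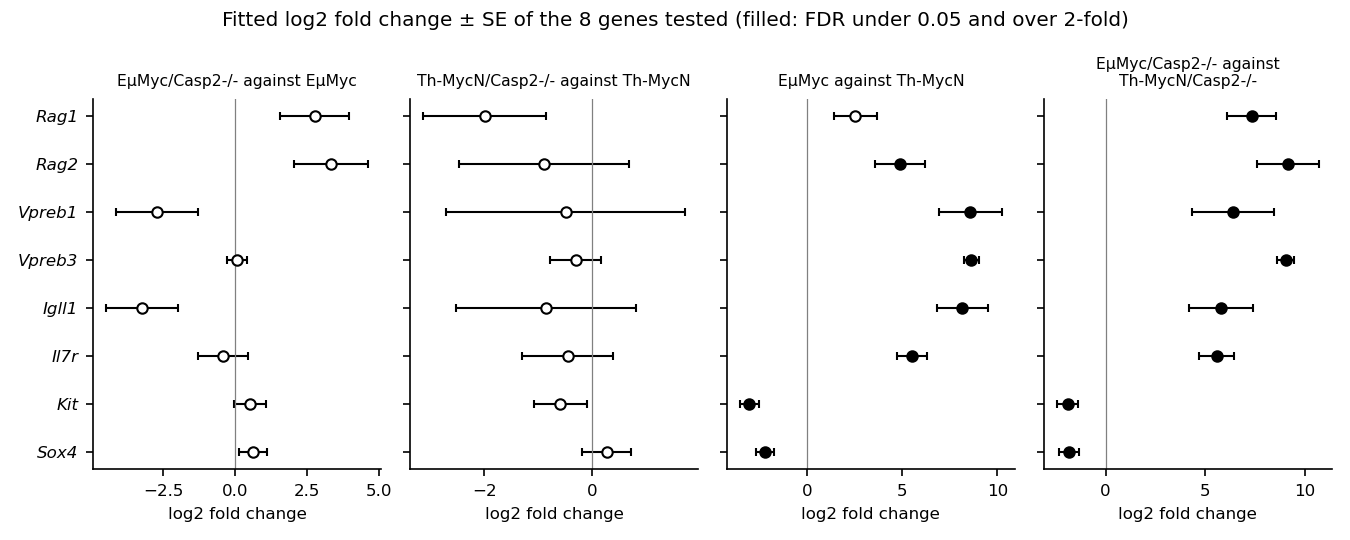
Fitted log2 fold change (horizontal axis, a separate range in each panel) with its SE for the 8 genes tested, in 4 comparisons, filled where the gene was called by LRT. Every gene is open in both comparisons of genotypes, and all but Rag1 in EμMyc against Th-MycN tumors are filled between tumor types. Fitted values of Rag2, Vpreb1 and Igll1 against groups with 7 or fewer reads depend on the fit and are not bounds.

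The other lists gave the background of these differences in the lymphomas against the neuroblastomas, first without and then with loss of Casp2, where 18.9% and 20.5% of all 14880 genes were higher and 28.5% and 27.6% lower. All 9 pan-B markers were higher in both (among them Cd79a, Cd79b, Pax5, Ebf1, Cd22, Blk, Blnk and Cd37). Of 9 other pro-B and pre-B markers 8 and 9 were higher, Lef1 being the one not called in EμMyc against Th-MycN tumors, with Myb and Cd93 the most abundant. Of 7 mature B markers 6 and 7 were higher, Cr2 being the exception, and Ms4a1 was among the most abundant. Of 14 early B transcription factors 12 were higher in both (Pax5, Ebf1, Myb, Ikzf1, Tcf3, Foxo1, Sfpi1, Spib, Runx1, Gfi1, Gfi1b and Id3), Bcl11a and Id2 being the others. The 7 sympathetic markers were lower in both (among them Th, Dbh, Phox2a, Hand2, Gata3 and Chga). Some of these genes passed the filter of 1 CPM through only 1 tumor type. Pax5, Blk, Flt3, Ms4a1, Cxcr5, Gfi1 and Gfi1b were below 1 CPM in every neuroblastoma, and Hand2 and Chga in every lymphoma. The direction of such genes was set by the filter, so these counts describe the lists and are no test of them.

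Markers of other cells were called as well, to be read against the same shares of all genes (18.9% and 20.5% higher, 28.5% and 27.6% lower). Among them Cd3d, Cd3g, Cd8b1, Klrb1c, Prf1, S100a8 and Mpo were below 1 CPM in every neuroblastoma and passed the filter through the lymphomas. The direction of such genes was set by the filter, so these counts describe the lists and are no test of them. Of 10 T cell markers 8 and 10 were higher (Cd3d, Cd3e, Cd3g, Cd4, Cd8a, Cd8b1, Lck and Zap70, with Thy1 and Bcl11b in the knockout tumors), and of 7 thymocyte genes 4 and 6 (Rag2, Cd4, Cd8a and Cd8b1, with Rag1 among the further ones in the knockout tumors). Germinal centre genes gave 1 of 4 higher (Fas) and then 2 (Bcl6 and Fas), with Mybl1 lower in both, and plasma cell genes 2 of 5 (Igj and Irf4) and then 3 (with Prdm1), with Sdc1 lower in both. S1pr2 and Xbp1, among the most abundant of these in the lymphomas, were not called. Of 2 tested NK genes Prf1 and then also Klrb1c were higher, and Gzma, untested, was 21.7 CPM in EuMycC2ko215. Of 6 myeloid genes 3 (Emr1, S100a8 and Mpo) and then 2 (S100a8 and Mpo) were higher, while Lyz2 and Cd68, the most abundant, were not called. Endothelial genes gave 3 of 4 (Pecam1, Cdh5 and Tek) and then 4 (with Kdr), fibroblast genes 2 of 4 (Col1a1 and Pdgfra) and then 1 (Pdgfra), with Col1a2 not called. In the Schwann and melanocyte list Sox10 and Mitf were lower in EμMyc against Th-MycN tumors, and in the knockout tumors Sox10 and Erbb3 were lower and Mitf higher.

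The letters searched in the 250 bases before the RefSeq start of the 10 genes, on both strands, were CAGGTG of E2A, the Ikaros sequence TGGGAA and the palindromic motif of Ebf1. CAGGTG occurred in 4 of the 10 windows (Rag1, Vpreb1, Vpreb2 and Igll1) and in 17.2% of 32851 windows of the same length. TGGGAA occurred in 3 of 10 (Rag1, Vpreb2 and Sox4) and in 21.6% of all. The Ebf1 motif occurred in 0 of 10 and in 0.779% of all. A match describes the letters and not a bound site.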

How the data were processed

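The values are deposited counts of reads per gene, 1 table per tumor. Poly(A) RNA from frozen tumors was extracted with Trizol and read single-end. The submitters' notes name FastQC, STAR and edgeR with mm10/GRCm38, and the release of the annotation is not given in the sources used here. The authors deposited the counts of STAR without normalization, in 3 columns: reads of either strand (column 2) and of each strand. The last (column 4) was used. It held 48.8% to 49.3% of the reads of both strand columns, so the strand was not kept, and overlapping and antisense genes could not be told apart. Rows that name no gene took 66.4% to 71.8% of column 4, among them reads of the opposite strand, reads with several mapping places and unmapped reads, and were left out.

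With edgeR 4.0.16, limma 3.58.1 and R 4.3.3, the 14880 genes that exceeded 1 CPM in 3 or more of the tumors were scaled by TMM and fitted with 4 group means over all 15 tumors, and p-values were adjusted over all of them. A gene was called at an LRT FDR under 0.05 and over 2-fold. Log2 CPM values have a prior count of 2. Alternatives were QLF, DESeq2 1.42.0, RLE scaling, no filter, column 2, the compared groups alone and leaving out tumors. No library is a copy of another: in the 21 pairs from the same group, chi-square divided by its degrees of freedom was at least 16.2. Older symbols were matched through RefSeq synonyms. Named are the 10 genes, Casp2, Myc, Mycn, the genes called in each list with its 2 most abundant in the lymphomas, and the 5 genes most like Rag1 and Igll1, while genes named for a single tumor beyond these were chosen after their values were seen. A few genes of the lists are not reported here. The 10 genes and the lists were chosen with earlier results of these data known.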

Additional observations from a re-analysis of the deposited data

Results flagged for a closer look

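In 27 groups of 4 tumors, 1 per gene with reads and group, the gap of the highest or lowest tumor to its neighbour was divided by the range of log2 CPM of the group and set against Dixon's critical value of 0.829 for 4 samples. Chance passes about 1 in 20 such groups. Igll1 in EμMyc tumors had 0.942, with EuMyc743b at 95.1 CPM far above 1.59 to 2.05 CPM in the other 3. Vpreb1 in EμMyc tumors had 0.831, with EuMyc743b at 60.1 CPM above 0.394 to 1.06 CPM. Vpreb1 in Th-MycN/Casp2-/- tumors had 1, which is 1 read in MYCNC2ko118 against 0 reads in the other 3 and lies below the limit of 3 reads. Groups of 3 tumors were not examined, so the levels of EuMycC2ko215 could not be flagged this way.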

How the results depend on the processing

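The number of stage genes called stayed within 1.5 times under QLF, DESeq2, RLE scaling, no filter, reads of either strand, the compared groups alone and tumors left out, except that between the lymphoma genotypes 0 calls became 1 without EuMyc829 (range 0 to 1 with 1 lymphoma left out at a time). The number tested was not always 8. With the compared groups alone it was 4 between the neuroblastoma genotypes, where 0 calls therefore cover fewer genes. It was then 6 in EμMyc against Th-MycN and 7 in EμMyc/Casp2-/- against Th-MycN/Casp2-/- tumors. Without the filter 9 were tested. With tumors left out the number called was 7 to 8 in EμMyc against Th-MycN, 8 in EμMyc/Casp2-/- against Th-MycN/Casp2-/-, and 0 in the neuroblastoma genotypes and the interaction. Rag1 in EμMyc against Th-MycN passed the threshold with reads of either strand (LRT FDR 0.0328) and without EuMyc743b (0.0251) or EuMyc835 (0.0034), and its log2 fold change was 1.20 without EuMyc829. Pairs of genes below an adjusted p of 0.05 rose from 0 to 2 with reads of either strand. Genes above the 90th percentile of SD numbered 6 of 9 in all lymphomas and 3 without EuMyc743b, with or without EuMycC2ko215, a choice made after seeing the data.

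Signs turned for differences near or below their SE and where EuMyc743b was left out. With 1 tumor left out at a time, the lymphoma genotype difference was -3.39 to 1.83 for Vpreb1, -0.223 to 0.377 for Vpreb3, -4.26 to 0.513 for Igll1 and -0.878 to 1.34 for Il7r. The neuroblastoma genotype difference was -1.7 to 0.322 for Rag2 and -1.15 to 0.285 for Il7r, and the interaction was -2.9 to 2.32 for Vpreb1, -3.42 to 1.37 for Igll1 and -0.702 to 1.78 for Il7r. Without EuMyc743b and EuMycC2ko215, chosen after seeing the data, the lymphoma genotype difference was -0.358 for Vpreb3, 0.773 for Igll1 and 1.28 for Il7r, and the interaction -0.056 for Vpreb3 and 1.63 for Igll1. As a difference of mean log2 CPM in place of the fitted fold change, the lymphoma genotype difference of Il7r was 0.320, and relative to the summed CPM of pan-B markers 0.443, so the sign had turned before that scaling. The cause was not tested beyond these omissions.

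No paired analysis was possible because the labels number tumors by mouse and no number is shared between groups. DESeq2 gave no adjusted p for Igll1, and Vpreb1 did not pass the filter without both tumors. With 3 or 4 tumors in a group and SEs above 1 for Rag1, Rag2, Vpreb1 and Igll1, only large differences of these genes between genotypes were detectable, and the neuroblastoma values of Rag2, Vpreb1, Vpreb2 and Igll1 rest on at most 5 reads a tumor.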
